A study of Mus musculus with 12 samples.

Results

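Purinergic and NAD ectoenzyme genes were taken as 7 genes chosen by symbol, *Entpd1*, *Nt5e*, *P2rx4*, *P2rx7*, *Adora2a*, *Art2b* and *Cd38*, out of 25860 genes listed in the RNA-seq table. They were followed in CD8+ T_prog_ cells, the progenitor pool of autoreactive CD8+ T cells, sorted from the pancreatic lymph nodes of female nonobese diabetic (NOD) mice. All mice carried the transgenic NY8.3 T cell receptor, which recognizes the β cell antigen IGRP. The WT group (*NOD-TCR 8.3 WT*) was compared with a UTX knockout group, *NOD-TCR 8.3 UTX TCD*, with 3 RNA-seq and 3 ATAC-seq libraries of each genotype, and the question was how loss of the histone demethylase UTX changes expression and chromatin accessibility in these cells. *UTX TCD* mice had floxed *Kdm6a*, the gene of UTX, and an Lck-driven Cre that acts in T cells. The alleles had been backcrossed from B6 to NOD mice, and for the parent NOD line the WT controls were Cre-negative littermates. No treatment is stated, and the ages of the donors of these libraries are not given in the sources used here. An n of 3 per group of mice is stated for both assays, and the methods call the ATAC-seq replicates biological. That each RNA-seq library came from separate mice is not said outright, so p-values measure the spread between these libraries, which may in part be technical. The sort gate was Ly108+CXCR6- in the series description and Ly108+CD39- in the methods. CD39 is the protein of *Entpd1*, so the second gate selects against one of the 7 genes.

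Extracellular ATP, released by stressed, dying or activated cells, opens P2X channels on T cells. CD39 and then CD73 degrade it to adenosine, which acts on the receptor encoded by *Adora2a* and dampens T cell activation. Extracellular NAD feeds a parallel route, in which CD38 hydrolyses it and the ADP-ribosyltransferase ART2.2 uses it to modify surface proteins, among them P2X7, whose opening can kill mouse T cells.

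The RNA-seq libraries held 146456724, 144503203 and 193568919 counted reads in WT replicates 1 to 3 and 61512402, 175462433 and 187275082 in UTX TCD replicates 1 to 3. UTX TCD replicate 1 was the shallowest. Levels are given as normalized counts, reads divided by one size factor per library, and a floor of 3 reads equals 2.21 to 6.75 normalized counts depending on the library, for counting error only. Fold changes are UTX TCD over WT from limma on log2(normalized count + 1), which understates changes of low genes. A gene was called at a Benjamini-Hochberg adjusted p under 0.05 over the 14459 genes tested together with an absolute log2 fold change over 0.5. For one gene, 3 libraries against 3 allow no exact permutation p under 0.10.

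Before the results, the labels and libraries were checked. *Kdm6a* was counted at 28365, 28949 and 29172 in WT and at 24158, 24792 and 24579 in UTX TCD cells. The genotypes did not overlap, but the fold change was small (log2 -0.23, adjusted p = 0.00114 from limma) and did not pass the fold limit. Gene-level counts do not resolve exons, so the deletion itself was not checked here. *Slamf6*, which encodes Ly108, was not called (adjusted p = 0.089 from limma). *Cxcr6* fell from 12033 ± 2146 to 5658 ± 355 normalized counts (SD, n = 3 each, log2 -1.07, adjusted p = 0.000131 from limma). None of the 5 CD8 T cell markers and none of the 5 progenitor markers was called, and *Cd8a* and *Tcf7* were the most abundant genes of these lists.

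WT replicate 2 stood apart for the 7 genes. It was the highest of the 3 WT libraries for 7 of 7, against 36.3% of all tested genes. The same library had 79127 normalized counts of *Il7r*, the receptor of interleukin 7, where WT replicates 1 and 3 had 38077 and 37105. For each of the 7 genes the log2 fold change is therefore also given without WT replicate 2. Beyond this and the removals named below, its part in the results is not given here.

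All 7 genes passed the filter on low counts, and 5 of them were called, beside 17.6% of all tested genes. Of these, *Nt5e* and *Art2b* were higher in UTX TCD cells (2 of 7, beside 10.5% of all tested genes) and *P2rx7*, *Adora2a* and *Cd38* were lower (3 of 7, beside 7.05%). In the same 5 genes the 3 UTX TCD libraries did not overlap the 3 WT libraries, a state that 51.9% of all tested genes shared. The median log2 fold change was -0.59 over the 7 genes and 0 over all tested genes. The 7 genes were chosen with earlier results of these data known, so these shares only describe them. In these bulk samples, fewer cells that express a gene and less RNA per cell cannot be told apart.

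**Figure D1:**
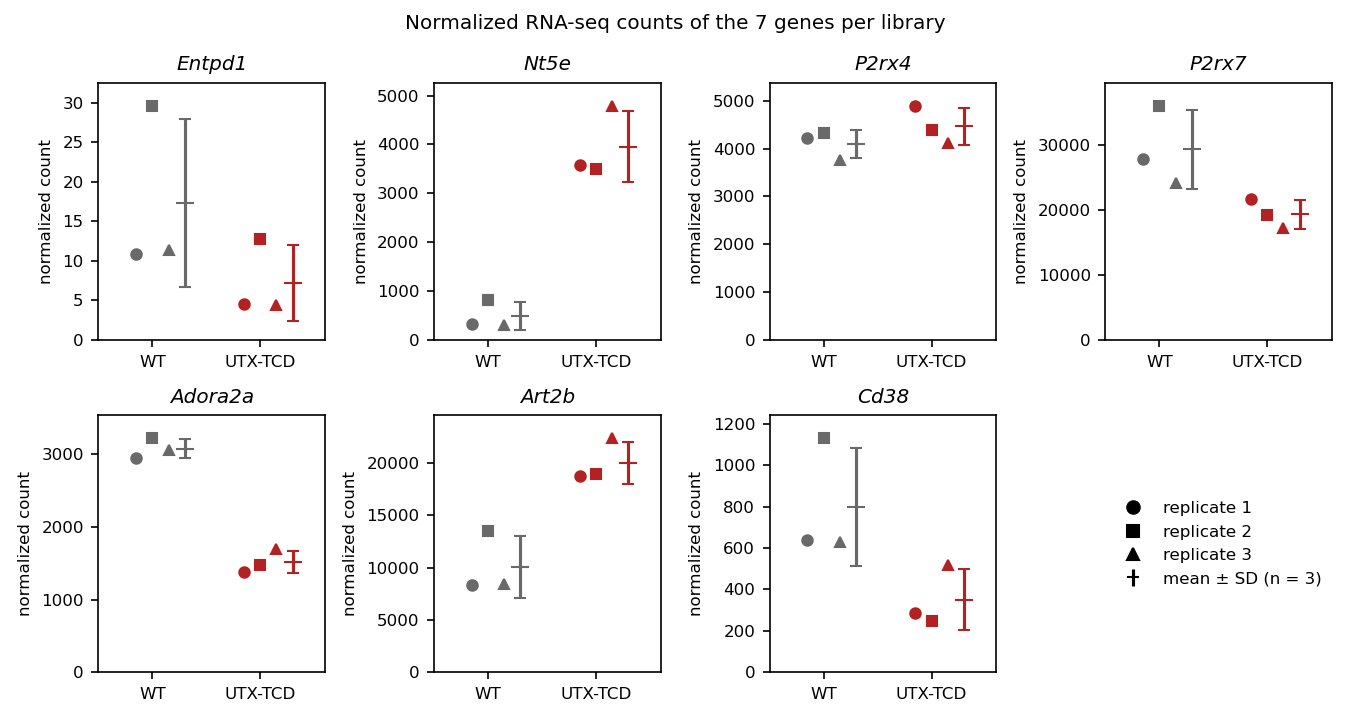
Normalized RNA-seq counts (vertical axes, linear from 0) of each of the 7 genes in the 3 WT libraries (grey) and the 3 UTX TCD libraries (red), with one symbol per replicate number and the mean ± SD beside them. *Nt5e* and *Art2b* lie higher and *P2rx7*, *Adora2a* and *Cd38* lower in all UTX TCD libraries, *Entpd1* and *P2rx4* overlap, and WT replicate 2 (square) is the highest WT point in every panel.

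The first enzyme, CD39 (*Entpd1*, chromosome 19 from 40612366 to 40741602 of mm10), converts ATP and ADP to AMP. *Entpd1* had 10.9, 29.6 and 11.4 normalized counts in WT, against 4.50, 12.8 and 4.42 in UTX TCD cells, from 11, 30 and 15 reads and from 2, 16 and 6 reads. All libraries were low, with UTX TCD replicate 1 under the floor of 3 reads, the genotypes overlapped, and the highest library of each genotype was its replicate 2. The log2 fold change was -1.15 (95% interval -2.42 to 0.11, adjusted p = 0.131 from limma), and -0.71 without WT replicate 2. The gene was thus low and variable between libraries, in cells that one of the stated gates selects for lack of this protein, and no difference passed the test.

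CD73 (*Nt5e*, chromosome 9 from 88327609 to 88372089), the enzyme that releases adenosine from AMP, had the largest rise of the 7 genes. *Nt5e* was counted at 326, 811 and 315 in WT and at 3579, 3496 and 4788 in UTX TCD cells. The lowest UTX TCD library lay far above WT replicate 2, the highest WT library. The mean rose from 484 ± 283 to 3954 ± 723 (SD, n = 3 each). From the log2 values of the libraries, the fold change was 3.16 on the log2 scale (standard error 0.32, adjusted p = 8.58e-05 from limma). Without WT replicate 2 the log2 fold change was 3.61.

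Both ATP-gated channels lie side by side on chromosome 5 and on the same strand, *P2rx7* from 122643927 to 122692336 and *P2rx4* from 122707518 to 122729739. *P2rx4*, which opens at low ATP, was counted at 4212, 4324 and 3770 in WT and at 4892, 4383 and 4125 in UTX TCD cells. The genotypes overlapped, and the gene was not called (log2 0.12, 95% interval -0.05 to 0.30, adjusted p = 0.24 from limma), nor was it without WT replicate 2 (log2 0.16, adjusted p = 0.172 from limma). *P2rx7*, the channel that needs high ATP or ADP-ribosylation, was counted at 27829, 36058 and 24134 in WT and at 21675, 19252 and 17168 in UTX TCD cells. All UTX TCD libraries were lower than all WT libraries, with UTX TCD replicate 1 and WT replicate 3 closest to each other. The log2 fold change of *P2rx7* was -0.59 (standard error 0.14, adjusted p = 0.00793 from limma). Leaving out WT replicate 2 ended the call, because the log2 fold change of -0.43 (adjusted p = 0.0133 from limma) no longer passed the fold limit. With all libraries its fold change, as a ratio of the genotypes, lay just past 1.5. Over all alternatives the adjusted p of *P2rx7* ran from 0.00234 to 0.031.

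The adenosine receptor encoded by *Adora2a* (chromosome 10 from 75316877 to 75334792) raises cyclic AMP in T cells. *Adora2a* was counted at 2947, 3213 and 3055 in WT and at 1383, 1478 and 1689 in UTX TCD cells. Libraries of each genotype lay close together and the genotypes were far apart. The mean fell from 3072 ± 134 to 1517 ± 156 (SD, n = 3 each), and the log2 fold change was -1.02 (standard error 0.08, adjusted p = 2.37e-05 from limma). It was -0.99 without WT replicate 2. *Nt5e* and *Adora2a*, the enzyme that makes adenosine and a receptor that senses it, thus changed in opposite directions.

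On the NAD side, ART2.2 (*Art2b*, chromosome 7 from 101575729 to 101585591) is a glycosylphosphatidylinositol-anchored ADP-ribosyltransferase of mouse T cells. *Art2b* was counted at 8299, 13498 and 8468 in WT and at 18699, 18888 and 22318 in UTX TCD cells. Every UTX TCD library was above every WT library, WT replicate 2 included. The mean rose from 10088 ± 2954 to 19969 ± 2037 (SD, n = 3 each, log2 fold change 1.02, standard error 0.17, adjusted p = 0.00134 from limma). Without WT replicate 2 the log2 fold change was 1.25. Its neighbour *Art2a* (from 101552453 to 101560865), a transcribed pseudogene in RefSeq, had 118, 209 and 70.2 normalized counts in WT, against 675, 539 and 699 in UTX TCD cells. *Art2a* rose too (log2 2.39, standard error 0.33, adjusted p = 0.000538 from limma). Both are copies of one gene, and 13.2% of the 50-base windows in *Art2a* exons and 3.4% of those in *Art2b* exons were identical between them, with a longest shared run of 125 bases. Reads from such stretches could be split between the genes, so both values, and above all that of the less abundant *Art2a*, are uncertain.

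CD38 (*Cd38*, chromosome 5 from 43868809 to 43912374) hydrolyses NAD at the cell surface and also forms cyclic ADP-ribose. *Cd38* was counted at 639, 1128 and 630 in WT and at 286, 247 and 520 in UTX TCD cells. The UTX TCD libraries were all lower, although UTX TCD replicate 3 came near WT replicates 1 and 3. The mean fell from 799 ± 285 to 351 ± 148 (SD, n = 3 each, log2 fold change -1.21, standard error 0.30, adjusted p = 0.0115 from limma). Without WT replicate 2 the log2 fold change was -0.93 (adjusted p = 0.0386 from limma), and over all alternatives the adjusted p ran from 0.00259 to 0.0417. The 2 NAD-consuming enzymes among the 7 genes therefore changed in opposite directions.

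Per kilobase of merged RefSeq exons, the levels of the 7 genes spread over 3 orders of magnitude in WT cells. *P2rx7* was highest with 4550 ± 947 normalized counts per kilobase (SD, n = 3), followed by *Art2b* with 2326 ± 681, *P2rx4* with 1503 ± 107 and *Adora2a* with 1041 ± 45.2. *Cd38* followed with 265 ± 94.7, *Nt5e* with 135 ± 79.1 and *Entpd1* with 3.49 ± 2.15. *Cd38* and *Nt5e* were the neighbours in this order whose mean ± SD ranges touched. WT replicate 2 widened both ranges, with 1128 normalized counts of *Cd38* and 811 of *Nt5e*. WT replicates 1 and 3 had 639 and 630 of *Cd38* and 326 and 315 of *Nt5e*. In UTX TCD cells *Art2b* was highest with 4604 ± 470 per kilobase, above *P2rx7* with 3003 ± 350 and *P2rx4* with 1637 ± 143. *Nt5e*, with 1105 ± 202, had moved above *Adora2a* with 514 ± 53.0 and *Cd38* with 116 ± 49.0, and *Entpd1* was lowest with 1.46 ± 0.97.

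ATAC-seq, in which a transposase cuts and tags accessible DNA, was read from the deposited peak table. It lists 23932 peaks, almost all of 401 bp and all with an FDR under 0.05 in the authors' own comparison, so peaks that differed less are not in it and a missing peak does not show closed or unchanged chromatin. For each peak it gives the mean log2 concentration (log2 of the mean normalized reads) per genotype, with no values per library, so no spread or test is given here. The 7 genes held 27 of these peaks by gene name, 16 more and 11 less accessible in UTX TCD cells, beside 68.8% more accessible among all listed peaks. Of the 16 and the 11 peaks, 10 and 8 differed by more than 0.5 on the log2 scale, a limit the study also used for peaks. *Adora2a* and *Art2b* had 8 peaks each, *Entpd1*, *Nt5e* and *P2rx7* 3 each, *P2rx4* 2 and *Cd38* none, where the median gene with any peak had 1.

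All 3 *Nt5e* peaks were more accessible in UTX TCD cells. The promoter peak (chr9:88327373-88327773) went from a mean log2 concentration of 8.84 in WT to 9.53, and a peak in intron 1 (chr9:88329274-88329674), 1865 bp from the start site, from 8.03 to 9.21. The peak in intron 3 (chr9:88362109-88362509) differed least, at 9.18 and 9.44. The gene's RNA was higher in the same genotype.

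At *Art2b* all 8 peaks were more accessible in UTX TCD cells, by 0.47 to 1.19 on the log2 scale. The most open of them (chr7:101580828-101581228), in intron 1 and 133 bp from the annotated start site, had mean log2 concentrations of 10.60 in WT and 11.49 in UTX TCD cells. The largest difference was at an intergenic peak 26.7 kb upstream (chr7:101607690-101608090), at 6.70 and 7.88. A further 2 peaks assigned to *Art2a*, at chr7:101538180-101538580 and chr7:101541133-101541533, were also more accessible, by 0.92 and 0.55. Both lie past the 3′ end of *Art2a*, 17.4 and 14.5 kb from its annotated start site, and the first lies in *Gm35363*. The peaks named for this pair of genes and the RNA counted for both thus moved the same way. As said above, reads could be split between the genes.

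*Adora2a* showed the opposite picture, with 7 of 8 peaks less accessible in UTX TCD cells. Its promoter peak (chr10:75316521-75316921) went from a mean log2 concentration of 10.53 in WT to 10.03, and the peak in its intron 1 (chr10:75320312-75320712) from 10.21 to 9.80. The other 6 peaks lie upstream in introns 12 and 13 of *Specc1l*, the neighbouring gene, and carry the name *Adora2a* only because its promoter is the nearest. Among them was the largest difference at any of the 7 genes (chr10:75301932-75302332, 14.7 kb upstream), at 8.67 in WT and 6.82 in UTX TCD cells. One upstream peak (chr10:75294158-75294558) was more accessible instead, at 9.21 and 9.98. *Specc1l* itself was not called (log2 -0.21, adjusted p = 0.0326 from limma).

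The peaks of *P2rx7* were mixed along the gene. An intergenic peak 5426 bp before the start site (chr5:122638301-122638701) went from 9.29 to 8.78 and a peak in intron 1 (chr5:122647332-122647732) from 8.82 to 7.81, both less accessible in UTX TCD cells. The most open peak, in intron 2 (chr5:122653146-122653546), went from 11.05 to 11.44. Another 2 peaks in introns 8 and 9, at chr5:122668993-122669393 and chr5:122671648-122672048, carry the name of the microRNA gene *Mir8115* and so fall outside the 27. They were more accessible by 1.01 and 0.46, so that the 5 peaks at this locus split into 2 less accessible ones at the 5′ end and 3 more accessible ones further into the gene.

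*P2rx4* and *Entpd1* were not called in RNA. The 2 peaks named for *P2rx4* (chr5:122732279-122732679 and chr5:122733865-122734265) lie past its 3′ end, in the last exon of *Camkk2*, and were more accessible by 0.41 and 0.26. *Camkk2* was not called (log2 0.04, adjusted p = 0.56 from limma). At *Entpd1* a peak 143 bp from a start site (chr19:40659713-40660113) was more accessible by 0.38, and peaks in intron 1 (chr19:40687401-40687801) and intron 3 (chr19:40722328-40722728) were less accessible, at 9.58 against 8.88 and at 8.80 against 8.52.

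**Figure D2:**
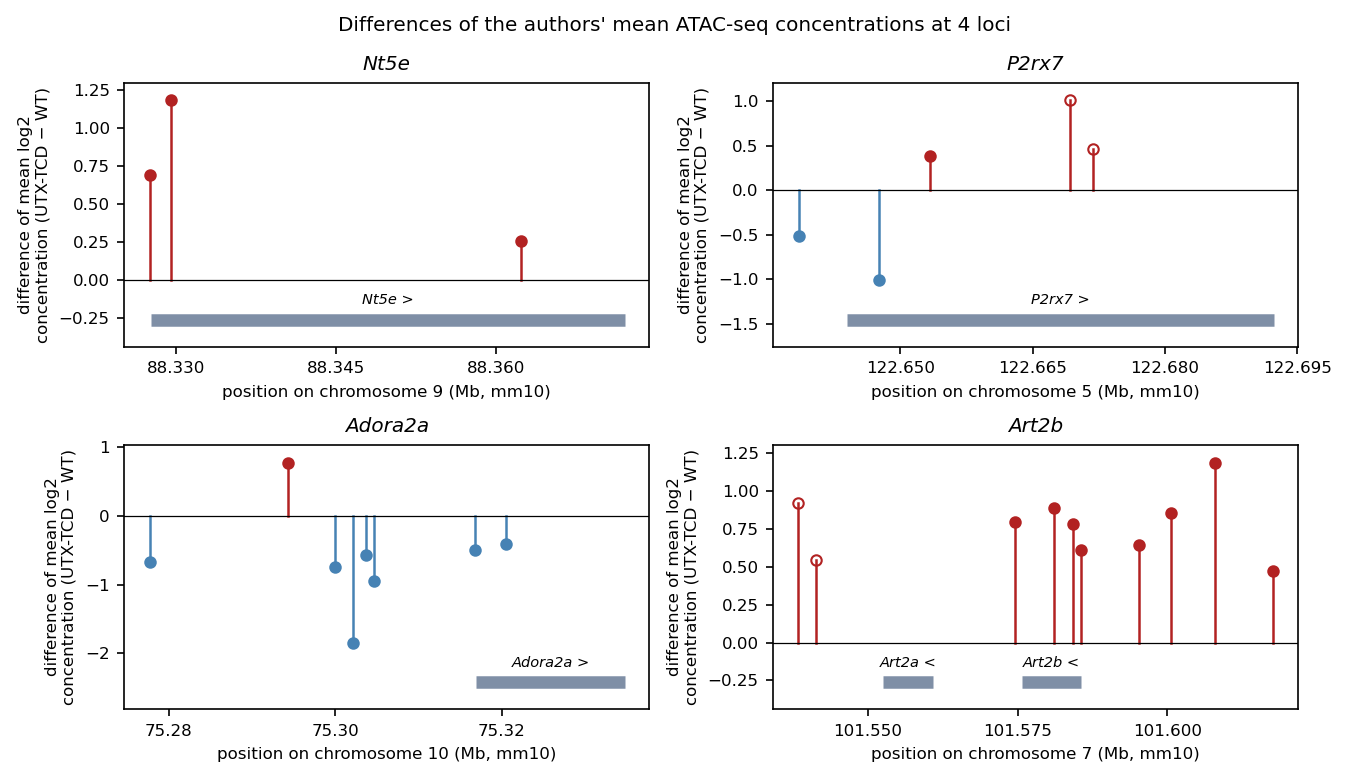
Difference of the authors' mean log2 ATAC-seq concentration, UTX TCD minus WT (vertical axis), of each listed peak against its position in mm10 (horizontal axis, megabases) at 4 loci. Filled points carry the panel's gene name and open points lie in the locus under another name (*Mir8115* or *Art2a*), red is more and blue less accessible in UTX TCD cells, grey bars are genes with arrowheads for their strand, and no error is shown because the table has no values per library. Peaks at *Nt5e* and *Art2b* all point up, 7 of 8 at *Adora2a* point down, and those of *P2rx7* are mixed.

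For the 4 called genes that had peaks, the peak with the largest difference among those carrying the gene's name was taken. At *P2rx7* this peak differed by -1.01, beside 1.01 at a peak named for *Mir8115*. The central 300 bases of each peak taken are given, to show the sequence that lost or gained accessibility. They were read on the plus strand of GRCm38 (mm10), and all lie outside annotated exons, at chr9:88329325-88329624 in intron 1 of *Nt5e*, at chr7:101607741-101608040 upstream of *Art2b*, at chr10:75301983-75302282 in intron 13 of *Specc1l* for *Adora2a* and at chr5:122647383-122647682 in intron 1 of *P2rx7*. Capitals mark matches, on either strand, to TTCNNNGAA, the STAT motif, or to CTTTGA or CTTTGT, the core of TCF1 and LEF1. One match was found in these windows, to the TCF1 and LEF1 core in the *Adora2a* peak. Over their full 401 bp, the *Nt5e* peak held 1 such core and the *Adora2a* peak 2, and the *Art2b* and *P2rx7* peaks held none.
Nt5e: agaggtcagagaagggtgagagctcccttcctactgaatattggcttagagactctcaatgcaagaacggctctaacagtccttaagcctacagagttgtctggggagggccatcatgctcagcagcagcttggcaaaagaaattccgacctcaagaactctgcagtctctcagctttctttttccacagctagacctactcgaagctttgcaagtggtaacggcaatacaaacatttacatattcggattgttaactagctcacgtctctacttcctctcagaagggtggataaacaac
Art2b: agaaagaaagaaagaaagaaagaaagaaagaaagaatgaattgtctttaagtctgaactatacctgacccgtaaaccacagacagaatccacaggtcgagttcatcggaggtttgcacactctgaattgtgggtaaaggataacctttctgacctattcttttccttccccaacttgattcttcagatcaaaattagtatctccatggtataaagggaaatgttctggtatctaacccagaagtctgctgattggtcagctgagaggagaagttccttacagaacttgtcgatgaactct
Adora2a: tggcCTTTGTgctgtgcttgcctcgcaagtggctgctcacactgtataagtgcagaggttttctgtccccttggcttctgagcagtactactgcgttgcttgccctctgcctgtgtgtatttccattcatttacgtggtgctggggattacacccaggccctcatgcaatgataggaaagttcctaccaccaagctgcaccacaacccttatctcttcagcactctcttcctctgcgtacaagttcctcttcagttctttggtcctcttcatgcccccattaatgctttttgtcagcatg
P2rx7: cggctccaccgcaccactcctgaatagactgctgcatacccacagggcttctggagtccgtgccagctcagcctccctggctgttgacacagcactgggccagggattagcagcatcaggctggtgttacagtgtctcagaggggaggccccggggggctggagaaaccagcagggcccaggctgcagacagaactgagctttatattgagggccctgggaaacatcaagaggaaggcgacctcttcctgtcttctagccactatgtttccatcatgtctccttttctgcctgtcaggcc

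Over all 27 peaks, 4 (14.8%) held a STAT motif, beside 11.9% of the 23907 listed peaks of 401 bp on chromosomes 1 to 19, X and Y, and 13 (48.1%) held a TCF1 and LEF1 core, beside 51.1%. Among the RefSeq promoters of 300 bp, 8 belonged to 6 of the 7 genes. None of the 8 held the STAT motif and 3 held the TCF1 and LEF1 core, where 8.3% and 31.2% of all such promoters did. These are matches of letters and were not tested as binding sites.

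The surrounding pathway was read from lists that held 56 further genes of the table, 42 of which were tested. Of these, 8 rose and 9 fell without UTX, beside 10.5% and 7.05% of all tested genes, and 25 were not called. The median log2 fold change was -0.04, beside 0 over all tested genes. The lists were written with earlier results of these data known, so these counts only describe the listed genes and are no evidence about the pathway.

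Among genes of ATP release, 1 of 3 tested was lower and none higher. *Slc17a9*, the vesicular nucleotide transporter, fell from 12345 ± 599 to 6499 ± 561 (SD, n = 3 each, log2 -0.93, adjusted p = 1.47e-05 from limma), whereas the channel gene *Panx1* was not called (log2 -0.05, adjusted p = 0.439 from limma). Of 7 tested ectonucleotidases and phosphatases other than the 2 above, 2 were higher and 1 lower. *Alpl*, tissue-nonspecific alkaline phosphatase, rose from 131 ± 3.30 to 392 ± 29.8 (log2 1.57, adjusted p = 3.03e-05 from limma). *Enpp5* rose from 1382 ± 125 to 2653 ± 163 (log2 0.94, adjusted p = 4.18e-05 from limma). *Enpp1*, which cleaves ATP to AMP and pyrophosphate, fell from 2082 ± 218 to 578 ± 107 (log2 -1.86, adjusted p = 1.38e-05 from limma).

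Of 4 other tested P2X genes, *P2rx3* was higher, at 35.5 ± 9.73 and 61.8 ± 5.32 (SD, n = 3 each, log2 0.82, adjusted p = 0.0415 from limma). This call was lost in 8 of 14 alternatives, namely with the replicate block (adjusted p = 0.0633 from limma), with no filter on low counts (0.0765), with DESeq2 (0.0805) and on removal of WT replicate 2 or 3 or of any UTX TCD library (up to 0.124). Of 3 tested P2Y genes, 2 were lower. *P2ry10*, a lysophospholipid receptor by its known ligands, fell from 15833 ± 678 to 8818 ± 401 (log2 -0.85, adjusted p = 4.97e-06 from limma). *P2ry1*, the ADP receptor, fell from 37.2 ± 16.3 to 7.75 ± 4.07 (log2 -2.17, adjusted p = 0.00856 from limma), from 4, 4 and 15 reads in UTX TCD replicates 1 to 3. *P2ry1* passed the filter on low counts only through the WT libraries. With no such filter it was also called (adjusted p = 0.0115 from limma).

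Of 8 tested genes for adenosine receptors, uptake and breakdown, 3 were lower and none higher. *Ada*, adenosine deaminase, was counted at 3663, 2651 and 3674 in WT and at 1044, 921 and 1073 in UTX TCD cells. The genotypes were far apart, with a log2 fold change of -1.70 (standard error 0.13, adjusted p = 1.63e-05 from limma). *Dpp4* (CD26), a surface peptidase that binds adenosine deaminase in humans, fell from 45897 ± 566 to 23303 ± 2034 (SD, n = 3 each, log2 -0.98, adjusted p = 5.38e-06 from limma). *Adk*, adenosine kinase, fell from 3661 ± 189 to 2354 ± 151 (log2 -0.64, adjusted p = 0.000115 from limma). *Nt5e* was thus higher in the genotype in which these 3 genes and *Adora2a* were lower. The equilibrative nucleoside transporter genes *Slc29a1*, *Slc29a2* and *Slc29a3* had log2 fold changes of 0.23, 0.24 and 0.32, under the fold limit.

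Of 7 tested genes for other ADP-ribosyltransferases and NAD glycohydrolases, 3 were higher and 1 lower. Besides *Art2a*, *Art3* rose from 39.5 ± 14.1 to 174 ± 32.4 (SD, n = 3 each, log2 2.17, adjusted p = 0.000534 from limma). *Sarm1*, an intracellular NAD glycohydrolase, rose from 131 ± 16.5 to 219 ± 21.5 (log2 0.74, adjusted p = 0.0067 from limma). *Art4* was counted at 2446, 2359 and 2007 in WT and at 342, 327 and 250 in UTX TCD cells. It had the largest fall of this list (log2 -2.90, adjusted p = 9.85e-07 from limma), opposite to its relative *Art2b*. *Bst1* (CD157), the paralogue of *Cd38*, was low, at 18.6 ± 9.15 and 16.7 ± 13.8, and was not called (adjusted p = 0.683 from limma).

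Of 10 tested genes of NAD synthesis and ADP-ribose sensing, 2 were higher and 1 lower. *Nampt*, which starts NAD salvage from nicotinamide, rose from 7275 ± 341 to 10945 ± 348 (SD, n = 3 each, log2 0.59, adjusted p = 3.05e-05 from limma). *Nmnat2*, which completes NAD synthesis, fell from 172 ± 23.7 to 20.1 ± 8.08 (log2 -3.11, adjusted p = 0.000105 from limma). Its relatives *Nmnat1* (log2 0.41, adjusted p = 0.0341 from limma) and *Nmnat3* (log2 -0.30, adjusted p = 0.0577 from limma) were not called. *Nmnat1*, which moved opposite to *Nmnat2*, missed only the fold limit. *Trpm2*, a cation channel opened by ADP-ribose, had 2.97, 3.95 and 3.05 normalized counts in WT, at or just above the floor of 3 reads, and 24.7, 34.4 and 28.0 in UTX TCD cells. It was called higher (adjusted p = 0.000478 from limma), and the size of its fold change depends on the pseudocount. *Trpm2* passed the filter on low counts only through the UTX TCD libraries. With no such filter it was also called (adjusted p = 0.000633 from limma).

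**Figure D3:**
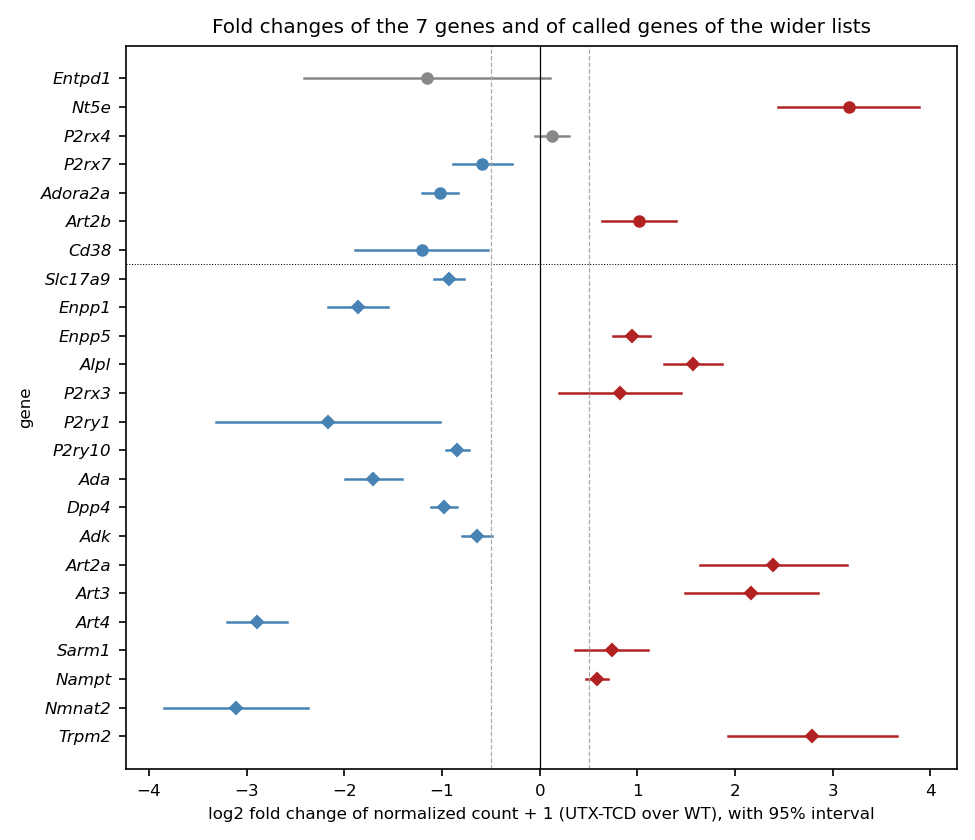
Log2 fold change of normalized count + 1, UTX TCD over WT, with its 95% interval from limma (horizontal axis), of the 7 genes (circles, above the dotted line) and of the 17 called genes of the wider lists (diamonds). Red is called higher, blue called lower and grey not called, and dashed lines mark the fold limit of 0.5. *Nt5e* lies highest at 3.16 and *Nmnat2* lowest at -3.11.

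The 3 tested genes whose log2 normalized counts followed each of the 7 most closely over the 6 libraries, by Pearson's r and with no test, were the following. For *Nt5e* they were *Dmrta1*, *Rfc3* and *Atad2* (lowest r 0.998). *Adora2a* was followed by *Fam3c*, *Nudt2* and *Arhgap5* (lowest r 0.999) and *Art2b* by *Rps6kb1*, *Nsl1* and *Hic1* (lowest r 0.998). *Cd38* was followed by *1110032F04Rik*, *Nelfe* and *Chaserr* (lowest r 0.993), *P2rx7* by *Ppil4*, *Eif4e* and *Bnip3l-ps* (lowest r 0.991), *P2rx4* by *Trbj1-5*, *Trbj1-4* and *Eri2* (lowest r 0.998) and *Entpd1* by *Tnfaip1*, *Anp32b-ps1* and *Bmt2* (lowest r 0.966). All points share the same 6 libraries, 3 of each genotype. Without WT replicate 2, 2 of the 3 stayed among the closest for *Adora2a* and *P2rx4* and none of the 3 for the other 5 genes.

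Markers of other cells that a lymph node sort can hold were read beside these results. Of 5 B cell markers, *Ms4a1* and *Cd22* were called higher and *Cd79b* lower. They summed to 114650, 97209 and 106619 normalized counts in the WT libraries and to 96310, 90971 and 82706 in the UTX TCD libraries, of which *Ighm* made up 97.9%, while *Ms4a1* had 5.94 to 73.0 in the 6 libraries. The call of *Ms4a1* was lost without WT replicate 1 or 3 or without UTX TCD replicate 2 or 3 (adjusted p of up to 0.119 from limma). Of 4 tested myeloid markers, *Csf1r* and *Fcgr3* were lower. Their list summed to 866, 843 and 702 in WT and to 1051, 797 and 993 in UTX TCD cells, 85.1% of it *Cd68*, with *Cd14* at 0 in WT replicate 2 and UTX TCD replicates 2 and 3.

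Of 4 markers of CD4 and regulatory T cells, *Cd4* was lower, a call lost in 8 of 15 alternatives, namely with no filter on low counts, after scaling all libraries to one sum, with DESeq2 and on removal of any library except UTX TCD replicate 2 (adjusted p of up to 0.101 from limma). The list summed to 1591, 1733 and 1503 in WT and to 1575, 1515 and 2097 in UTX TCD cells, with *Ctla4* as its most abundant gene. None of 2 tested NK cell markers and none of 2 tested stromal and endothelial markers was called. The NK list summed to 107 to 214 over the 6 libraries, 83.2% of it *Tyrobp*, with *Ncr1* at 0 in 4 libraries. The stromal list was 98.7% *Pecam1*, and *Cdh5* had 24.8, 21.7 and 9.91 in WT and 0 in all UTX TCD libraries. The part of such cells in the results for the 7 genes was not tested.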

How the data were processed

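RNA-seq and ATAC-seq of sorted CD8+ T_prog_ cells were used, with 3 libraries per genotype in each assay. Groups and replicate numbers came from the sample titles.

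For RNA-seq the authors ran FastQC, mapped to mm10 by HISAT2 2.2.1, took gene counts from featureCounts and scaled them by DESeq2 size factors. The mice were NOD and mm10 is the C57BL/6J reference. The gene annotation and strand setting are not given in the sources used here, so overlapping and antisense genes are uncertain. The deposited RNA-seq signal was the read count divided by 1 size factor per library. Whole reads were recovered for 100% of values within 0.01 of a read. For ATAC-seq the authors trimmed reads with Cutadapt, aligned them with Bowtie2, removed duplicates with Picard, called peaks with MACS2, compared genotypes with DiffBind and annotated peaks with HOMER. A shift for the transposase is not stated in these sources. The deposited ATAC-seq values used were the authors' mean log2 concentrations per genotype. The adjusted p-value the authors deposited for each peak was read only for its highest value, to see what the table was filtered on. Columns with the authors' own comparisons (log2 fold changes, their errors, p-values and adjusted p-values) were not used.

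limma 3.58.1 under R 4.3.3 (lmFit and trended eBayes) was run on log2 values with a pseudocount of 1 for genes whose normalized counts averaged 10 or more, with Benjamini-Hochberg adjustment over all genes tested and genotype as the only term. The log2 limit of 0.5 is that of the study's results section, whereas its RNA-seq methods state a fold change over 1.5. The methods define fold change as the difference from the control divided by the control, and the alternative here took 1.5 as a ratio instead. On the recovered reads edgeR 4.0.16 (quasi-likelihood) gave 2541 calls, while 2422 came from DESeq2 1.42.0. The limma step was tested on simulated reads. Alternatives changed the pseudocount, low-count filter, scaling, tool, fold limit or peak selection, added a replicate block, or left out 1 library. The likeness of genes without WT replicate 2 was added after seeing the data.

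The shallowest library had 61512402 counted reads and the deepest 193568919. The reads carry no stated molecular identifiers, so the floor of 3 reads covers counting error only. The named genes were the 7 genes, every called gene of the wider lists, the 3 closest genes by Pearson's r and *Kdm6a*, *Slamf6* and *Cxcr6*. Not called genes, marker genes, *Il7r* and the neighbours *Specc1l* and *Camkk2* were named after their values were seen. The members and lists were chosen with earlier results of these data known. Peaks were taken by the gene name in the table. Gene positions, exons and promoter sequences came from RefSeq for GRCm38.p6, the build of mm10, and sequences were read with pysam 0.24.0. One item of the lists is not reported here. CUT&Tag was not used here.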

Additional observations from a re-analysis of the deposited data

How the results depend on the processing

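Over the 7 genes, 103 of 104 alternative values kept their direction and their side of the limits. The exception was *P2rx7* without WT replicate 2, and its log2 fold change ran from -0.72 to -0.43 when each library was left out in turn. That call thus rests on 1 library, and the cause was not tested. With *Entpd1* no value could be had at a mean normalized count of at least 50, since too few reads were counted. The 5 calls among the 7 genes were 4 without WT replicate 2 and 5 under the other alternatives. With no limit on the fold change, 5887 genes were called in place of 2538, and 26 in place of 17 on the wider lists, because small changes then count. Of all genes called, 49.7% were then higher, in place of 59.8%. With peaks limited to a difference over 0.5, 10 peaks of the 7 genes were more accessible in place of 16 and 8 less accessible in place of 11, by the construction of that limit, and the *Adora2a* promoter peak and both *P2rx4* peaks were among those left out.

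The deviations of same-numbered libraries of the genotypes had r of 0.305, -0.20 and 0.09 for replicates 1 to 3. That of replicate 1 was the highest of all pairings, next to 0.294 for WT replicate 3 with UTX TCD replicate 2. The numbers were therefore not taken as pairs, and a shared replicate effect was not tested beyond the replicate block. With the replicate block, 2474 genes were called, and the calls of the 7 genes did not change, while on the wider lists *P2rx3* lost its call (adjusted p = 0.0633 from limma) and *P2rx6* gained one as higher (adjusted p = 0.0276 from limma). Without WT replicate 2 the wider lists lost *P2rx3* and gained *Art1* and *P2rx6*, both higher. *P2rx6* was also gained without UTX TCD replicate 3, *Art1* with a pseudocount of 5, *Art5* with edgeR and *Entpd4* with no filter on low counts. These too were called higher. Scaling each library to the same sum moved the share of calls that were higher from 59.8% to 66.9% and the median log2 fold change to 0.06, and no call among the 7 genes changed. On the wider lists this scaling gave 19 calls in place of 17, with *Art1* and *Art5* gained as higher. The ATAC-seq means carry no spread.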
